A study of Mus musculus with 38 samples.

Results

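Terminally exhausted CD8+ T cells (Tterm) were compared with progenitor exhausted cells (Tprog) from the tumours of old mice, by the chromatin that was open in each. The comparison used 6 of the 38 libraries in the series, 3 of Tterm and 3 of Tprog, picked by their labelled age and sort gate. The mice were C57BL/6J wild type animals aged 64-68 weeks, bearing B16-OVA, a mouse melanoma line that carries ovalbumin, and the endogenous CD8+ T cells in the tumours were sorted on day 15. Tterm cells were Slamf6- Tim-3+ and Tprog cells were Slamf6+ Tim-3-. A further pair of libraries from old animals, of Slamf6- Tim-3- cells that the labels call age-associated dysfunctional (Tadys), is given beside the results as values. ATAC-seq uses the Tn5 transposase to insert sequencing adapters into accessible DNA, so reads pile up where chromatin is open. Libraries came from pools described as 2 or 3 independent biological replicates with 5000 to 50000 cells each, and the sources used here do not state whether each library listed is a separate set of animals. All endogenous libraries share 1 batch entry for batches 1 and 2, which could not be split. The p-values rest on how much libraries vary within all 5 groups of the 17 endogenous libraries, which were fitted in 1 model. Some of that variation may be technical.

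T cells that meet antigen for a long time, as in tumours, become exhausted. The progenitor subset keeps the transcription factor Tcf1 (gene Tcf7), renews itself and supplies the terminal subset, which carries the inhibitory receptor Tim-3 (gene Havcr2) and makes granzymes and perforin. Slamf6 is a receptor of the SLAM family used to sort progenitors. Promoters and enhancers open and close between these states, and ATAC-seq reads that change site by site. In sorted bulk cells, a site open in fewer cells and a site less accessible in each cell cannot be told apart.

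The promoters that bear on the main results are shown here, because their peaks differed between the subsets and because several belong to near-identical granzyme genes. Each window of 300 bases runs from 250 bases before to 50 bases after a RefSeq start, 5′ to 3′ on the gene's strand, from RefSeq on GRCm38.p6, the assembly also named mm10. Capitals mark the letters TGTGGTT, the core bound by RUNX factors, and TGANTCA, the core bound by AP-1, searched on both strands. Gzmb (chr14:56262285-56262584, minus strand), Gzmc (chr14:56234608-56234907, minus), Gzmd (chr14:56132544-56132843, minus), Gzme (chr14:56120576-56120875, minus) and Gzmf (chr14:56211358-56211657, minus) encode granzymes of 1 cluster. Havcr2 (chr11:46454681-46454980, plus) encodes Tim-3, which the sort used. Btla (chr16:45224087-45224386, plus) encodes an inhibitory receptor and is the one window of these that was less open in Tterm.
Gzmb: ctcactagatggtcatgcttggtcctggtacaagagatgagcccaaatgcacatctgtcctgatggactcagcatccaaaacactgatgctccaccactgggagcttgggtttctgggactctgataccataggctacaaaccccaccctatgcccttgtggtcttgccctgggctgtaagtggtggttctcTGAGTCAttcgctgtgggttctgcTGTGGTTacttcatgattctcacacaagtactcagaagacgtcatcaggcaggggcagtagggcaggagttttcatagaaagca
Gzmc: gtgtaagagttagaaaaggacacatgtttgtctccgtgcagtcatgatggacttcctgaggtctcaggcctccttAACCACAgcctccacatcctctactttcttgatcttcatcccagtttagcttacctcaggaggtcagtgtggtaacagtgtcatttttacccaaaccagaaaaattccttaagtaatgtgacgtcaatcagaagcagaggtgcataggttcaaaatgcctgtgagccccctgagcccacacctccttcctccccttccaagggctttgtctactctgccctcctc
Gzmd: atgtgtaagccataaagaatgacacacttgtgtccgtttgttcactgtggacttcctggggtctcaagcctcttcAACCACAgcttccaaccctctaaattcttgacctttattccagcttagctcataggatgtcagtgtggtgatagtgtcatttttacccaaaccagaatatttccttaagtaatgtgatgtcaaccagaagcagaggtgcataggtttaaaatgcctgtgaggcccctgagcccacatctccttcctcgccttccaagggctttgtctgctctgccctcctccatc
Gzme: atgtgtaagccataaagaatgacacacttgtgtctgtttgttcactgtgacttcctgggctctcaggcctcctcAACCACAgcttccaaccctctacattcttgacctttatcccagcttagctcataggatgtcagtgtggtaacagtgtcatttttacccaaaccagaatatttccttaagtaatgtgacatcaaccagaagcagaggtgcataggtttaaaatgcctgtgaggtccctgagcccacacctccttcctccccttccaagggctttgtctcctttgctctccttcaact
Gzmf: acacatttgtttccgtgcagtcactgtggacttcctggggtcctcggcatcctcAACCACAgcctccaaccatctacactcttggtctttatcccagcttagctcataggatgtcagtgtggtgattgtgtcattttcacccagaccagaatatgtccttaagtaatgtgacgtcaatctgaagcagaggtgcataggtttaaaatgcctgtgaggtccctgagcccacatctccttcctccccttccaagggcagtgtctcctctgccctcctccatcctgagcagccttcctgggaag
Havcr2: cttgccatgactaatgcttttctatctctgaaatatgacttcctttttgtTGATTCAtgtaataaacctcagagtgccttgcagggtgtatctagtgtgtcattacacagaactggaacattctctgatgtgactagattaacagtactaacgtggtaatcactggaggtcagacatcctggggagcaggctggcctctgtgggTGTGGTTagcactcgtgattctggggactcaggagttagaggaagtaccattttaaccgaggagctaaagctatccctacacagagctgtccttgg
Btla: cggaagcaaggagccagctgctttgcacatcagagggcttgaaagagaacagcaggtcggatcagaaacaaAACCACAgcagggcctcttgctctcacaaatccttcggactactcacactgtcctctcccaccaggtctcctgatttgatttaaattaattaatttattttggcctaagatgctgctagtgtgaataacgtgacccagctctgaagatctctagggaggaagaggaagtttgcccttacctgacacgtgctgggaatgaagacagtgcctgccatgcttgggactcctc

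Each of the 7 windows held 1 RUNX core, and those of Gzmb and Havcr2 also held 1 AP-1 core. These windows were picked and several are close relatives, so they do not give the share of promoters with a core. Over all windows in tested peaks, the RUNX core stood in 4.10% and the AP-1 core in 5.07%. In windows of higher peaks the shares were 9.55% and 11.4%. The Gzmc, Gzmd, Gzme and Gzmf windows matched each other at 86.1% to 94.3% of the 275 to 297 positions that a local alignment joined, and Gzmd and Gzme were the closest pair. The Gzmb window aligned with those 4 over at most 38 positions. The sources used here do not state how reads that fit several places were treated, so values at Gzmc to Gzmf may include reads shared between these genes.

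The values are deposited reads per peak divided by a size factor for each library, called normalized reads below. Depth was 22.3 to 26.9 megareads in peaks for Tterm and 4.64, 27.8 and 22.2 megareads for Tprog replicates 1, 2 and 3, so 1 read counts 3.84 normalized reads in Tprog 1 and 0.673 to 0.861 in the other libraries compared. Pearson correlations of log2 values over peaks were 0.933 to 0.954 among Tterm libraries, 0.902 to 0.939 among Tprog libraries and 0.874 to 0.930 between the subsets. A peak was called where limma's Benjamini-Hochberg adjusted p was under 0.05, and log2 differences are Tterm minus Tprog of log2(value + 1), given ± SE. Fits without 1 library are named beside a value only where they end a call or move a count by over 1.5 times. Changes of list counts by other methods are given with the processing alternatives at the end.

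The sort markers followed their labels. The Havcr2 promoter peak held 1491, 1482 and 1542 normalized reads in the Tterm libraries, against 561, 601 and 683 in the Tprog libraries (log2 difference 1.29 ± 0.12, limma adjusted p = 6.25e-08). The lowest-p Slamf6 peak, 16261 bp beyond the gene, held 140.4, 112 and 79.5 in Tterm, against 281, 372 and 287 in Tprog (-1.52 ± 0.26, limma adjusted p = 1.44e-04). No library overlapped the other subset at either peak. In all, 5 of 7 Havcr2 peaks were called higher and 6 of 8 Slamf6 peaks lower, of which 4 and 4 were called in every fit tried. None of the 6 Cd8a and 11 Cd8b1 peaks was called. Among genes of cells the gate could have let through, no peak was assigned to Tyr (melanocytes), Adgre1 and Lyz2 (macrophages), Cd79a and Ms4a1 (B cells), Foxp3 (regulatory T cells) or Ncr1 (NK cells). The other genes of these lists did have peaks. They were 6 of 7 melanocyte, 10 of 12 myeloid and 6 of 8 B cell genes. For CD4 and regulatory T cells they were 6 of 7, and for NK and innate cells 6 of 7. Summed promoter values lay at 645 to 794 in Tterm and 714 to 825 in Tprog for 1 of 7 melanocyte genes with a promoter peak, 1682 to 2000.4 and 1671 to 1749 for 5 of 12 myeloid genes, and 326 to 408 and 311 to 377 for 2 of 8 B cell genes. The sums were 936 to 1064 in Tterm and 1056 to 1122 in Tprog for 2 of 7 CD4 and regulatory T cell genes, and 309.9 to 545 and 253 to 311 for 2 of 7 NK and innate genes. Over all tested peaks, 6.75% were called higher and 5.37% lower. At these lists, 1 of 12 peaks was higher (8.33%) and 0 lower for melanocyte genes. For myeloid genes 7 of 51 were higher (13.7%), 6 of them at Cebpb, and 3 lower (5.88%). For B cell genes 1 of 29 was higher (3.45%) and 4 lower (13.8%). The counts were 2 higher (9.52%) and 3 lower (14.3%) of 21 for CD4 and regulatory T cell genes. They were 4 higher (12.5%) and 2 lower (6.25%) of 32 for NK and innate genes. Without 1 library these small counts changed by over 1.5 times in several cases, among them 4 higher myeloid peaks without Tterm 2 or Tprog 2. The part of such cells in the results was not tested.

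Of 71756 peaks tested, 4843 were higher in Tterm (6.75%) and 3856 lower (5.37%), so 12.1% were called in all. Library values did not overlap between the subsets at 10602 peaks that were above (14.8%) and 10091 that were below (14.1%), and 4678 and 3780 of the called peaks were among them. The median log2 difference was 1.07 over the higher peaks and -1.28 over the lower peaks, against 0.01 over all peaks. Higher peaks had a median level of 263 normalized reads in Tterm and 124 in Tprog, and lower peaks 66.7 in Tterm and 171 in Tprog. Differences of 2 or more on the log2 scale were seen at 443 higher and 573 lower peaks. The counts leaned on the number of libraries: the higher peaks numbered 2832 without Tterm 3, and the lower peaks 2564 without Tterm 2, 2570 without Tterm 3, 2403 without Tprog 2 and 2567 without Tprog 3. Without the shallow Tprog 1 they were 4182 and 3595. With library totals made equal, which moved the median of all peaks to -0.03, 49.6% of calls were higher, against 55.7% with the deposited scaling.

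**Figure D1:**
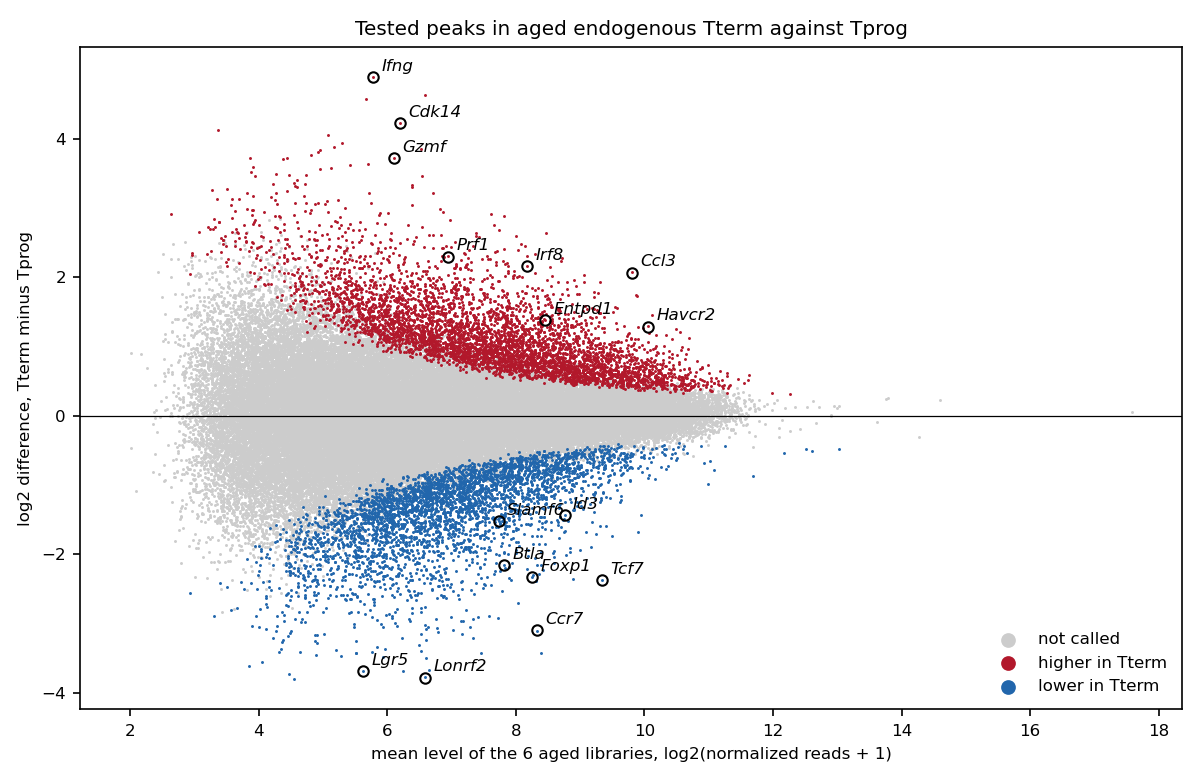
Log2 difference, Tterm minus Tprog (y axis), against the level of the 6 libraries, log2 of normalized reads plus 1 (x axis), for the 71756 tested peaks, with 4843 called higher peaks in red, 3856 called lower peaks in blue and the rest in grey. Called peaks lie on both sides of 0, and the largest differences are at sites of low to middle level.

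Most called sites lay away from promoters. A peak within 1000 bp of a RefSeq start made up 6.01% of the higher and 5.45% of the lower peaks, against 14.6% of all tested peaks. Read the other way, 2.78% of promoter peaks were higher and 2.01% lower, against 7.87% and 6.13% of peaks inside genes and 6.92% and 5.71% of peaks between genes. The median absolute log2 difference was 0.15 at promoters and 0.42 at each of the other classes. Promoter peaks were also the most open, with a median level of 606 normalized reads in Tterm and 591 in Tprog, against 76.0 and 78.1 inside genes.

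Transcription factors that maintain the progenitor state had many closed sites. Of 264 peaks at 14 such genes, 66 were lower (25.0%, against 5.37% of all peaks) and 8 higher (3.03%, against 6.75%, and 5 without Tterm 2), with a median log2 difference of -0.43. Called peaks were lower alone at 9 of the genes and went both ways at 4, and Bcl6 had none. Gene lists and peaks here and below were chosen with earlier results of these data known, and several peaks are named beyond the naming rule.

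Tcf7 encodes Tcf1. A site inside the gene (chr11:52273730-52276115) held 195, 206 and 223 normalized reads in Tterm, against 1076, 964 and 1208 in Tprog (log2 difference -2.37 ± 0.17, limma adjusted p = 1.50e-09). Every Tterm library lay below every Tprog library, and the 2 Tadys libraries, at 601 and 661, lay between. A second intragenic site held 69.8, 93.2 and 81.2 in Tterm and 361, 377 and 384 in Tprog (-2.20 ± 0.22, limma adjusted p = 2.06e-07). The promoter peak was lower too, with 269.5, 312 and 307 in Tterm and 930.0, 818 and 832 in Tprog (-1.54 ± 0.17, limma adjusted p = 4.93e-07). In all, 5 of 12 Tcf7 peaks were lower and none higher, and those 5 were called in every fit tried.

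Id3, an inhibitor of E protein transcription factors, is used in progenitor cells together with Tcf1. Its promoter peak held 261, 224 and 217 in Tterm, against 592, 622 and 678 in Tprog (-1.43 ± 0.17, limma adjusted p = 1.73e-06), with Tadys at 615 and 392. The groups did not overlap. A site 19927 bp away held 53.4, 63.5 and 66.3 in Tterm and 219, 207 and 236 in Tprog (-1.84 ± 0.26, limma adjusted p = 1.84e-05). Lower calls covered 5 of 8 Id3 peaks, and these 5 were called in every fit.

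Foxp1, which supports quiescence in T cells, had 22 of 48 peaks lower and none higher, one of the largest counts of any gene, although 11 of the 22 were called in every fit and 14 without either Tterm 3 or Tprog 3. At its lowest-p site (chr6:99485225-99486781) Tterm held 118, 75.2 and 110.2, against 430.4, 522 and 572 in Tprog (-2.33 ± 0.23, limma adjusted p = 1.59e-07). Bach2, a repressor that restrains effector genes, had 14 of 43 peaks lower. Its lowest-p site, inside the gene, held 59.4, 59.4 and 42.2 in Tterm and 169, 228 and 226 in Tprog (-1.94 ± 0.29, limma adjusted p = 3.45e-05). Klf3, a Krüppel-like repressor, had 5 of 8 peaks lower, 3 of them without Tterm 3, and sat at one end of a stretch of 14 consecutive lower peaks over 252739 bp. Lef1, a relative of Tcf7, went the other way at a site 52346 bp from the gene, with 1096, 1092 and 1329 in Tterm and 411, 509.6 and 508 in Tprog (1.30 ± 0.19, limma adjusted p = 3.42e-05). Of 20 Lef1 peaks, 2 were higher and 1 lower, and the lower call was lost without Tterm 1, Tterm 2 or Tprog 2.

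**Figure D2:**
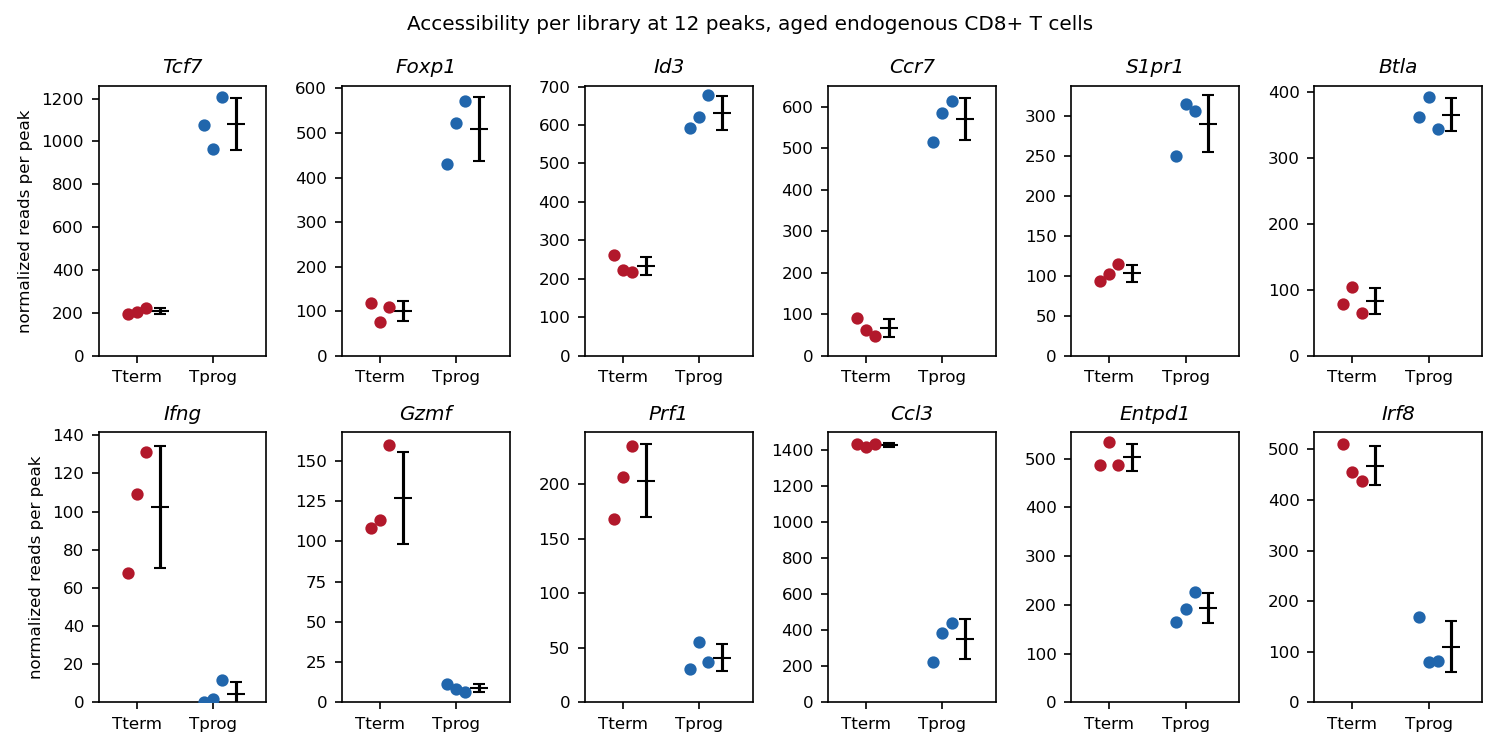
Normalized reads per library (y axis, linear from 0, with its own range per panel) at 12 peaks, with the 3 Tterm libraries left of the 3 Tprog libraries and bars for the mean ± SD, cut at 0 where they pass it. At Tcf7, Foxp1, Id3, Ccr7, S1pr1 and Btla every Tterm library lies below every Tprog library, and at Ifng, Gzmf, Prf1, Ccl3, Entpd1 and Irf8 every one lies above.

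Receptors that keep T cells in lymphoid tissue or let them leave also had many closed sites. Of 125 peaks at 17 chemokine and egress receptor genes, 37 were lower (29.6%, against 5.37% of all peaks) and 14 higher (11.2%, against 6.75%, and 9 without Tterm 3), with a median of -0.33. The lower ones were mainly at S1pr1 (11), Ccr7 (10), Cxcr5 (5) and Ccr6 (4), and the higher ones mainly at Ccr1 (6) and Ccr2 (3).

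Ccr7 directs T cells to lymph nodes. Of its 11 peaks, 10 were lower, 7 of them in every fit. At a site 15589 bp from the gene (chr11:99170666-99171753) Tterm held 91.3, 62.8 and 48.9, against 515, 584 and 613 in Tprog (-3.10 ± 0.26, limma adjusted p = 1.72e-08). The groups were far apart, and Tadys, at 98.2 and 144, lay near Tterm, whereas at Tcf7 it had lain midway. S1pr1, the receptor that lets T cells leave tissues, had 11 of 18 peaks lower, 7 without Tterm 2 or Tterm 3 and 6 without Tprog 2. Its lowest-p site held 93.9, 102 and 115 in Tterm, against 249.8, 315 and 307 in Tprog (-1.47 ± 0.23, limma adjusted p = 6.42e-05). Cxcr5, which guides cells to B cell follicles, had 5 of 10 peaks lower, each of them in every fit. At the lowest-p one, Tterm held 667, 599 and 465 and Tprog 1057, 1032 and 988 (-0.84 ± 0.16, limma adjusted p = 5.10e-04).

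The receptors for inflammatory chemokines differed in the opposite direction. Ccr1 had 6 of 10 peaks higher and 1 lower, 4 of the 6 in every fit, and the lower call was lost without Tterm 1, Tterm 2, Tprog 2 or Tprog 3. Its lowest-p site held 531, 552 and 715 in Tterm, against 196, 201 and 239 in Tprog (1.49 ± 0.20, limma adjusted p = 7.51e-06). Ccr2, which attracts monocytes and effector T cells to sites of inflammation, had 3 of 7 peaks higher, 2 of them in every fit. Tterm held 292, 376 and 498 at the lowest-p one, against 119, 105 and 185 in Tprog (1.51 ± 0.26, limma adjusted p = 1.90e-04). Ccr1 and Ccr2 both lie on chromosome 9, and peaks there were given to genes by distance alone. The centres of the 6 higher Ccr1 peaks lay 27472 to 43944 bp past the Ccr1 start, on the side away from Ccr2. The Ccr1 promoter peak was not called (0.86 ± 0.41, limma adjusted p = 0.197).

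Effector cells make chemokines of their own. Of 55 peaks at 8 chemokine genes, 19 were higher (34.5%, against 6.75% of all peaks) and 3 lower (5.45%, against 5.37%), and the median was 0.36. The higher peaks belonged to Ccl1, Ccl3, Ccl4, Ccl5 and Ccl9, all on chromosome 11. Ccl3 and Ccl4, which attract inflammatory cells, each had 4 of 4 peaks higher, and all 8 stayed called in every fit. They formed 1 unbroken stretch of 8 higher peaks over 37652 bp. A site 17580 bp from Ccl3 held 1434, 1419 and 1434 in Tterm, against 227, 386 and 442 in Tprog (2.07 ± 0.18, limma adjusted p = 3.18e-08), with Tadys at 1052 and 846. At the lowest-p Ccl4 site Tterm held 722, 804 and 755, against 304, 368 and 374 in Tprog (1.13 ± 0.18, limma adjusted p = 7.14e-05). Ccl9 had 3 of 7 peaks higher. Ccl1 had 4 of 11 (1 without Tterm 2, and 2 without Tterm 1, Tprog 2 or Tprog 3) and Ccl5 4 of 8 (1 without Tprog 1, and 2 without Tterm 1, Tterm 2 or Tprog 2). The 3 lower peaks were all of Xcl1, a chemokine that attracts cross-presenting dendritic cells. The lowest-p one held 89.6, 84.2 and 74.6 in Tterm and 204, 248 and 199 in Tprog (-1.38 ± 0.25, limma adjusted p = 4.11e-04).

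Killing molecules followed. Of 131 peaks at 21 cytotoxic and effector genes, 37 were higher (28.2%, against 6.75% of all peaks) and 6 lower (4.58%, against 5.37%, and 3 without Tterm 3), with a median of 0.35. Called peaks were higher alone at 12 genes, lower alone at 3 and both at 1, and 5 genes had none.

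Ifng, the gene of interferon gamma, had 11 of 27 peaks higher and none lower, 9 of them in every fit. At a site 36650 bp from the gene (chr10:118482544-118482910) Tterm held 68.0, 109 and 131, against 0, 2.02 and 11.6 in Tprog (4.89 ± 0.63, limma adjusted p = 5.15e-06). This was the largest log2 difference among called peaks of the naming rule, and the value of 0 came from the shallow Tprog 1. Tadys lay between at 36.1 and 15.2. Closer to the gene, a site that was open in both subsets held 2024, 1967 and 2094 in Tterm, against 938, 1282 and 1241 in Tprog (0.83 ± 0.14, limma adjusted p = 1.23e-04). Thus the site that was nearly closed in Tprog differed more on the log2 scale than the strongly open one. Prf1, the gene of perforin, which lets granzymes into target cells, had 5 of 8 peaks higher, 3 without Tterm 3 or Tprog 3 and 2 in every fit. A site inside the gene held 168, 206 and 235 in Tterm, against 30.7, 55.2 and 37.4 in Tprog (2.30 ± 0.29, limma adjusted p = 4.29e-06). The promoter peak held 1760.1, 1649 and 1619 in Tterm and 1038, 1052 and 1080.0 in Tprog (0.66 ± 0.12, limma adjusted p = 3.98e-04).

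The granzyme cluster on chromosome 14 was higher at 1 promoter after another. These are the Gzmb to Gzmf promoters printed above, with 2 neighbours, Gzmn and Mcpt8, added after their values were seen. Gzmb encodes the main granzyme of cytotoxic T cells. Its promoter held 1006, 1049.8 and 1021 in Tterm, against 538, 489 and 577 in Tprog (0.94 ± 0.13, limma adjusted p = 1.37e-05). The Gzmc promoter held 177, 132 and 145 in Tterm, against 53.8, 46.5 and 42.4 in Tprog (1.64 ± 0.34, limma adjusted p = 0.00127). The Gzmd promoter held 51.7, 42.1 and 59.6 in Tterm, against 11.5, 8.75 and 6.65 in Tprog (2.40 ± 0.56, limma adjusted p = 0.00424). No library overlapped the other subset at these promoters.

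The Gzme promoter held 127, 149.8 and 166 in Tterm, against 30.7, 13.5 and 31.6 in Tprog (2.58 ± 0.47, limma adjusted p = 3.36e-04). At Gzmf the values were 108, 113 and 159.9 in Tterm and 11.5, 8.08 and 6.65 in Tprog (3.72 ± 0.39, limma adjusted p = 2.96e-07). The Tprog 1 value at Gzmf stands for 3 reads. So the log2 difference was smaller at Gzmb, whose promoter was well open in Tprog, than at the 4 related genes, whose promoters were nearly closed there. The promoter of Mcpt8, a mast cell protease gene next to the granzymes, held 62.9, 38.0 and 48.9 in Tterm, against 0, 4.71 and 7.48 in Tprog (3.77 ± 0.66, limma adjusted p = 2.43e-04). Both Gzmn peaks were higher, by 3.06 and 2.28 on the log2 scale, and the first lost its call without Tprog 2. Of 9 Gzmb peaks 4 were higher, 2 without Tterm 2, Tterm 3 or Tprog 2. The promoter calls of Gzmb, Gzmc, Gzmd, Gzme, Gzmf and Mcpt8 held in every fit. In the Tadys libraries the Gzmf promoter held 74.1 and 48.6 and the Gzmb promoter 818 and 700.4, both between the other subsets.

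The tryptase granzymes lie elsewhere, on chromosome 13. The Gzma promoter held 448, 371 and 488 in Tterm, against 215, 301 and 214 in Tprog (0.85 ± 0.19, limma adjusted p = 0.00320). Gzmk, a granzyme common in less differentiated effector cells, held 1124, 1008 and 1318 in Tterm, against 657, 782 and 857 in Tprog, at a site 935 bp from the gene (0.59 ± 0.13, limma adjusted p = 0.00320). Its Tadys values, 581 and 527, lay below both other subsets.

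**Figure D3:**
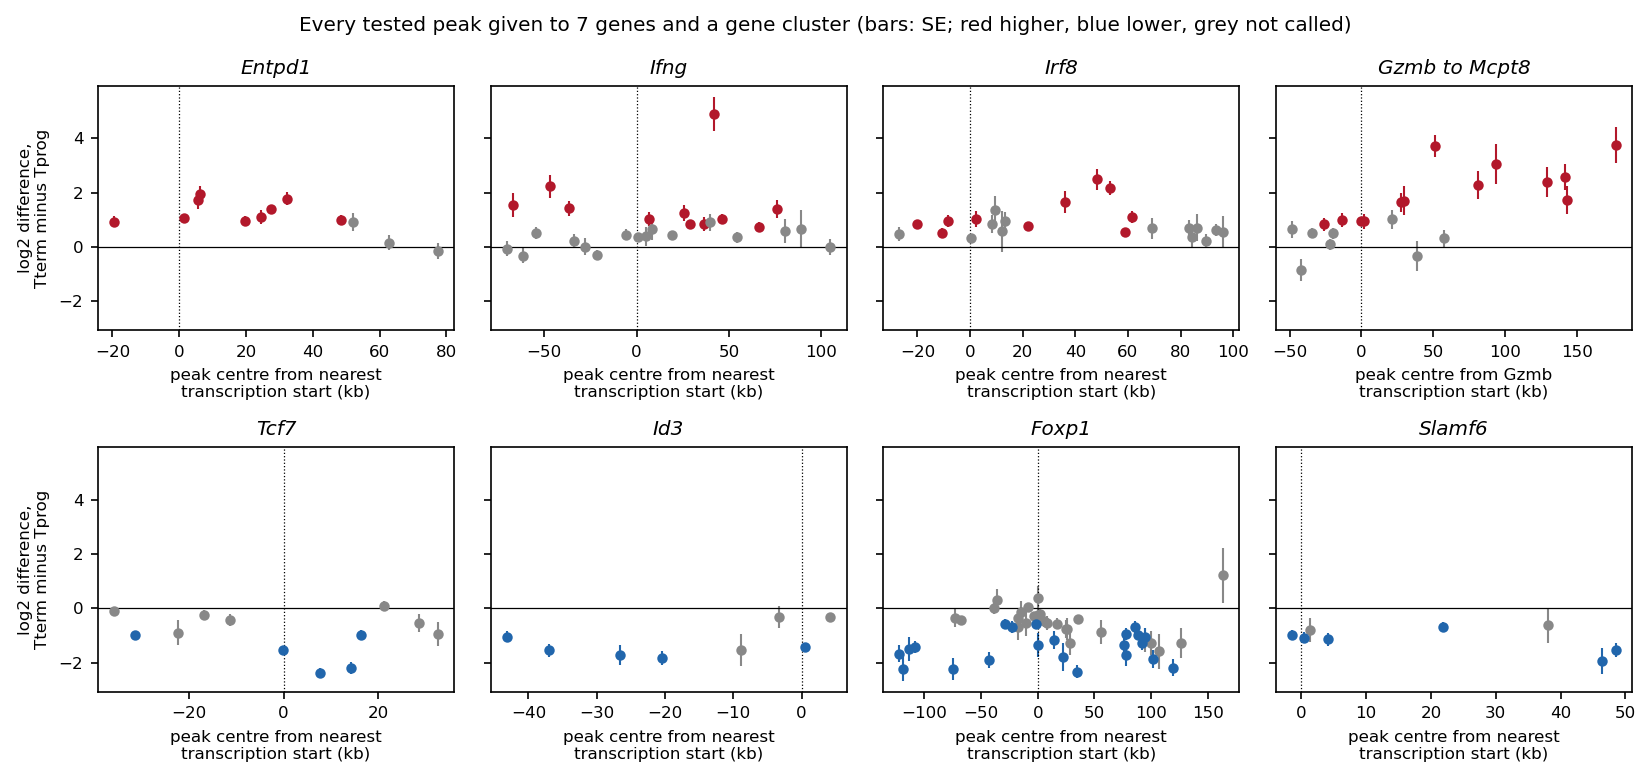
Log2 difference, Tterm minus Tprog ± SE (y axis), of every tested peak by its distance in kb from a start site (x axis), one panel for each of 8 loci, with called higher peaks in red, called lower peaks in blue and others in grey. Called peaks of Entpd1, Ifng, Irf8 and the granzyme cluster from Gzmb to Mcpt8 lie above 0, and those of Tcf7, Id3, Foxp1 and Slamf6 below.

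Factors of the effector and exhausted states were mixed. Of 562 peaks at 28 genes, 77 were higher (13.7%, against 6.75% of all peaks) and 28 lower (4.98%, against 5.37%), with a median of 0.13. Leaving out Tterm 2, Tterm 3 or Tprog 2 left 17, 17 and 18 lower peaks. Irf8, an interferon regulatory factor, had 10 of 23 peaks higher and none lower, 6 of them in every fit. A site 34579 bp from the gene held 511, 455 and 437 in Tterm, against 169, 80.1 and 81.4 in Tprog (2.16 ± 0.25, limma adjusted p = 1.44e-06). Runx3, which drives the cytotoxic programme, had 8 of 30 peaks higher and 1 lower. The lowest-p one held 1327, 1322 and 1378 in Tterm, against 542, 477 and 653 in Tprog (1.28 ± 0.13, limma adjusted p = 2.84e-07).

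Runx2, its relative, had 11 of 50 higher and 3 lower, of which 6 and 1 were left without Tterm 3 and 7 of the higher without Tprog 2. Id2, an E protein inhibitor that opposes the Id3 state, had 6 of 11 peaks higher. Tterm held 716, 777 and 676 at a site 68191 bp from it, against 257, 333 and 342 in Tprog (1.22 ± 0.15, limma adjusted p = 2.62e-06). Prdm1, the gene of the effector repressor Blimp-1, had 7 of 24 peaks higher and 1 lower, the lowest-p one with 1207, 1111 and 1226 in Tterm and 630.2, 703 and 635 in Tprog (0.85 ± 0.13, limma adjusted p = 7.59e-05). Rbpj, the effector of Notch signalling, had 5 of 36 higher, which came to 2 without Tterm 1 or Tprog 1, 1 without Tterm 2 or Tprog 3 and 3 without Tterm 3.

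Some factors of this list had more lower than higher calls. Tox, which exhausted cells need to persist, had 3 of 49 peaks lower, a share near the 5.37% of all peaks, and none higher. At the lowest-p one, inside the gene, Tterm held 268, 252 and 186, against 546, 619 and 569.9 in Tprog (-1.31 ± 0.23, limma adjusted p = 2.83e-04), with Tadys at 214 and 431. Another Tox site inside the gene averaged 25.6 in Tterm and 157 in Tprog (-2.56 ± 0.48, limma adjusted p = 4.46e-04). The median over all Tox peaks was -0.26, and the most open one averaged 1136 in Tterm and 1131 in Tprog (0.01 ± 0.13). Eomes, a T-box factor, had 3 of 13 lower and none higher, 1 without Tterm 2, Tterm 3, Tprog 2 or Tprog 3. Tterm held 115, 90.4 and 72.1 at its lowest-p site, 87133 bp away, against 196, 241 and 281 in Tprog (-1.37 ± 0.28, limma adjusted p = 0.00103). Rora, a nuclear receptor, had 7 of 33 lower and 1 higher, the higher one lost without Tterm 2 or Tprog 3.

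Inhibitory receptors and ectoenzymes went both ways. Of 134 peaks at 17 genes, 24 were higher (17.9%, against 6.75% of all peaks) and 12 lower (8.96%, against 5.37%), with a median of 0.02. Entpd1 encodes CD39, an enzyme that degrades extracellular ATP and marks terminally exhausted cells. Of its 12 peaks, 9 were higher and none lower, they followed each other over 91412 bp, and each was called in every fit. Inside the gene, Tterm held 487, 535 and 486 at one site, against 165, 191 and 226 in Tprog (1.38 ± 0.18, limma adjusted p = 6.74e-06). At the promoter the values were 1008, 1001 and 925 in Tterm and 399.7, 441 and 572 in Tprog (1.07 ± 0.16, limma adjusted p = 4.58e-05).

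Cd244a, which encodes the receptor 2B4, had 3 of 5 peaks higher, with 574, 583 and 660.2 at the promoter in Tterm, against 215, 201 and 197 in Tprog (1.56 ± 0.17, limma adjusted p = 4.68e-07). Pdcd1, the gene of PD-1, had 2 of 9 higher, the lowest-p one with 747, 799 and 933 in Tterm and 396, 514 and 433 in Tprog (0.88 ± 0.16, limma adjusted p = 3.78e-04). Btla had 6 of 11 peaks lower and none higher, 5 of them in every fit. A site inside it held 79.2, 104 and 64.6 in Tterm, against 361, 392 and 343 in Tprog (-2.16 ± 0.27, limma adjusted p = 2.54e-06). The Btla promoter peak, which holds the window printed above, had 535, 410.0 and 499 in Tterm, against 892, 929.7 and 903 in Tprog (-0.92 ± 0.16, limma adjusted p = 2.64e-04).

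Cytokine receptors also divided. Of 202 peaks at 22 genes, 24 were higher (11.9%, against 6.75% of all peaks) and 19 lower (9.41%, against 5.37%), and the lower ones numbered 12 without Tterm 3 and 11 without either Tprog 2 or Tprog 3. Il6ra, the receptor of interleukin 6, had 8 of 9 peaks lower, 4 without Tprog 2 and 5 without any 1 of Tterm 1, Tterm 2, Tterm 3 or Tprog 3. Its lowest-p site held 33.6, 65.6 and 70.4 in Tterm, against 161, 266 and 199 in Tprog (-1.91 ± 0.33, limma adjusted p = 1.71e-04). Il7r, the receptor for the survival cytokine interleukin 7, held 74.9, 38.0 and 57.2 in Tterm, against 249.8, 228 and 180.3 in Tprog, 3354 bp from the gene (-1.97 ± 0.34, limma adjusted p = 1.85e-04). Il2rb, a receptor chain for interleukins 2 and 15, had 6 of 7 peaks higher and 1 lower. The 6 came to 2 without Tterm 3 and 3 without Tterm 2, Tprog 1 or Tprog 2, and the lower call was lost without Tterm 2, Tterm 3, Tprog 2 or Tprog 3. Tterm held 1719.7, 1941 and 1933 at the lowest-p one, against 968, 1140.4 and 1219.6 in Tprog (0.75 ± 0.13, limma adjusted p = 1.52e-04).

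Costimulatory and TNF family genes had 28 of 179 peaks lower (15.6%, against 5.37% of all peaks) and 11 higher (6.15%, against 6.75%), with a median of -0.15. The lower count was 17 without Tterm 2, Tterm 3, Tprog 2 or Tprog 3, and the higher 7 without Tprog 3. Tnfrsf9, the gene of the costimulatory receptor 4-1BB, had 1 peak lower and 1 higher of 8. The lower one held 145, 85.6 and 82.8 in Tterm, inside the gene, against 349.7, 355 and 318 in Tprog (-1.75 ± 0.23, limma adjusted p = 7.22e-06). Tnfsf11, the gene of the cytokine RANKL, had 5 of 11 peaks lower.

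Adhesion and residency genes had 18 of 155 peaks lower (11.6%, against 5.37% of all peaks) and 12 higher (7.74%, against 6.75%), the higher ones 7 without Tterm 1, 6 without Tterm 3 and 7 without Tprog 3. Itgb1, an integrin chain, had 7 of 24 lower. A site 54381 bp from it was almost closed in Tterm, with 6.03, 6.90 and 7.46, against 84.5, 79.4 and 83.1 in Tprog (-3.42 ± 0.46, limma adjusted p = 7.50e-06). The Tadys libraries, at 8.02 and 18.2, lay just above Tterm. Cd69, a marker of tissue residency and recent activation, had 5 of 15 lower, 3 without Tterm 2, Tterm 3, Tprog 2 or Tprog 3. Its lowest-p site held 256, 303 and 244 in Tterm, against 684, 727 and 649 in Tprog (-1.36 ± 0.18, limma adjusted p = 7.42e-06). Itgav, the partner of integrins that activate TGF-beta, had 6 of 18 higher, 3 without Tterm 3, Tprog 2 or Tprog 3.

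Feedback regulators damp signalling. Of 253 peaks at 21 such genes, 38 were higher (15.0%, against 6.75% of all peaks) and 9 lower (3.56%, against 5.37%, and 4 without Tterm 3), with a median of 0.22. Called peaks were higher alone at 8 of the genes, lower alone at 5 and went both ways at 1. Dusp5, a phosphatase of ERK, had 9 of 19 peaks higher. The lowest-p one, 48529 bp away, held 741, 821 and 775 in Tterm, against 254, 388 and 361 in Tprog (1.24 ± 0.16, limma adjusted p = 4.42e-06). Spred2, an inhibitor of the Ras and ERK pathway, had 7 of 21 higher, with 216, 255 and 207 in Tterm and 46.1, 85.5 and 59.0 in Tprog at the lowest-p one (1.86 ± 0.33, limma adjusted p = 2.67e-04). Rgs3, a regulator of G protein signalling, had 7 of 38 higher, 2 without Tprog 1 and 4 without Tterm 2 or Tterm 3. Its lowest-p site held 443, 445 and 384 in Tterm, against 88.4, 112 and 110.5 in Tprog (2.03 ± 0.22, limma adjusted p = 3.80e-07).

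Other groups stood nearer the shares over all peaks, 6.75% higher and 5.37% lower, or below them. Proximal T cell receptor signalling had 25 of 367 peaks higher (6.81%) and 30 lower (8.17%), with 11 of the lower peaks at Fyn, a kinase of the Src family (7 without Tterm 2). Without Tterm 2, Tterm 3 or Tprog 1 the higher count was 15. At the lowest-p Fyn site Tterm held 232, 162 and 231, against 596, 551 and 616 in Tprog (-1.51 ± 0.20, limma adjusted p = 7.81e-06). The AP-1 family had 5 of 63 peaks each way (7.94%), with 3 higher without any 1 of Tterm 1, Tterm 2, Tterm 3, Tprog 2 or Tprog 3 and 3 lower without Tterm 3 or Tprog 2. Metabolism and nutrient transport had 16 of 176 higher (9.09%, 9 peaks without Tterm 3) and 4 lower (2.27%, 2 without Tprog 2). The cell cycle list had 7 of 100 higher, 6 of them at Cdk6, a kinase of the G1 phase, and 2 lower, 1 without Tterm 2, Tterm 3, Tprog 2 or Tprog 3. At its lowest-p site Cdk6 held 238, 226 and 244 in Tterm, against 53.8, 66.0 and 75.6 in Tprog (1.85 ± 0.23, limma adjusted p = 3.26e-06). Interferon response genes lay below the shares over all peaks, with 1 of 57 higher (1.75%) and none lower. None was higher without Tterm 2, Tterm 3 or Tprog 2, and 2 were lower without Tprog 1. Housekeeping genes had 4 of 55 each way (7.27%), with 1 higher without Tterm 1, 2 without Tterm 2 or Tprog 2, and 2 lower without Tprog 3. NK receptors and adaptors had 6 of 58 higher (10.3%, 3 peaks without Tterm 3) and 2 lower (3.45%), 1 without any 1 library other than Tterm 2. The adaptor genes Fcer1g and Tyrobp had 1 of 1 and 1 of 4 peaks higher, each in every fit.

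**Figure D4:**
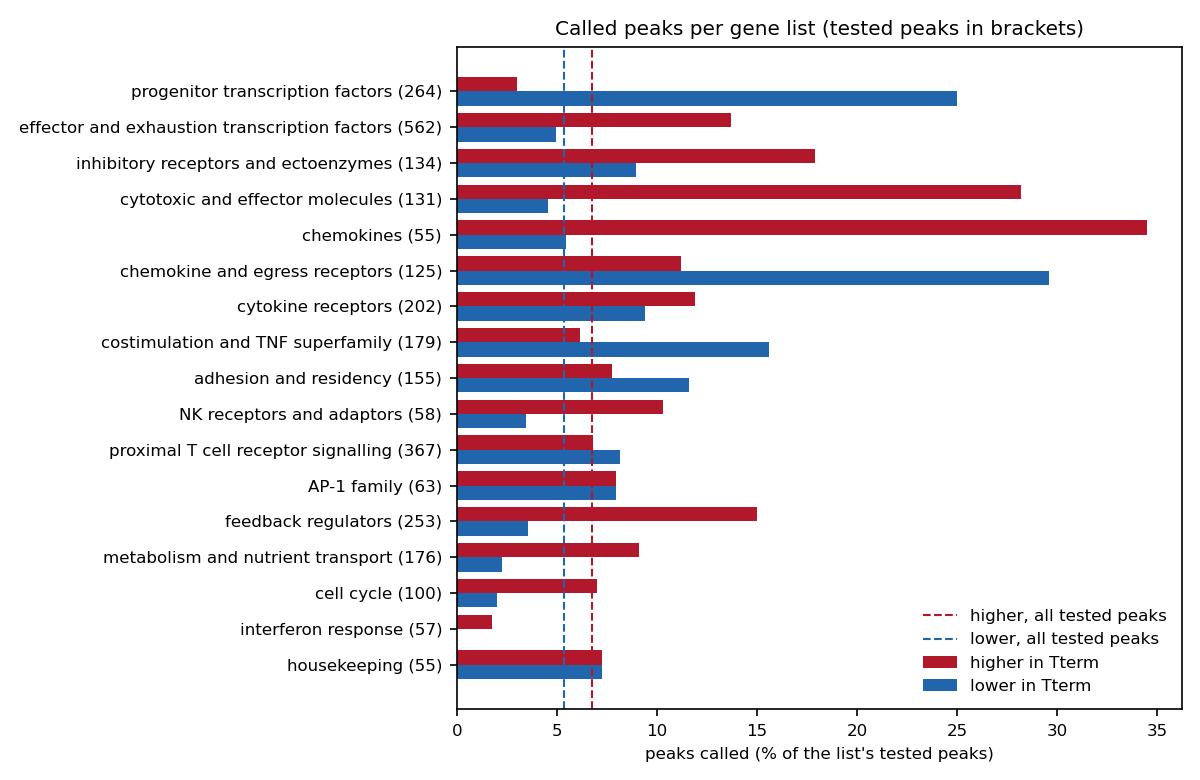
Percent of each gene list's tested peaks called higher (red) and lower (blue) in Tterm (x axis), one row per list, with dashed lines at the shares over all tested peaks, 6.75% and 5.37%. Chemokines and cytotoxic genes reach furthest on the higher side, at 34.5% and 28.2%, and chemokine and egress receptors and progenitor factors on the lower side, at 29.6% and 25.0%.

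Genes with the most called peaks included several outside these lists. Filip1 had 15 of 25 higher and Cmip 14 of 40, with none lower at either. On the lower side, Asap1, a regulator of Arf GTPases and the cytoskeleton, had 19 of 32 lower and 1 higher (lost without Tterm 3 or Tprog 2), and Rad51b, a gene of DNA repair, 15 of 46 lower. The lowest-p Asap1 site held 22.4, 46.9 and 29.0 in Tterm, against 173, 205 and 218 in Tprog (-2.62 ± 0.31, limma adjusted p = 1.45e-06). Genes with many peaks have more chances of a call.

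The largest differences were at small peaks. After the Ifng site, the called peaks that differed most were inside Arhgap10 (109, 199 and 230.3 in Tterm, against 0, 18.9 and 15.8 in Tprog, log2 difference 4.63 ± 0.69) and inside Gpx2, which encodes a glutathione peroxidase (59.4, 70.4 and 157 in Tterm, against 0, 8.75 and 4.15 in Tprog, 4.58 ± 0.60). Both had 0 reads in Tprog 1, where 1 read counts 3.84. On the lower side, a site inside Ncoa7 held 3.44, 3.45 and 0 in Tterm, against 15.4, 61.3 and 51.5 in Tprog (-3.80 ± 0.73). A site inside Nf1, which encodes a Ras inhibitor, held 9.47, 15.2 and 17.4 in Tterm, against 158, 201 and 197 in Tprog (-3.66 ± 0.40). It is the firmer of these by depth, with 41 reads in Tprog 1.

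At most called peaks the Tadys cells of old mice had values between the other subsets, by the means of 2 libraries with 8.51 and 12.1 megareads in peaks. Over the 4843 higher peaks the median level was 263 normalized reads in Tterm, 181 in Tadys and 124 in Tprog, and Tadys lay between at 3798 (78.4%). Over the 3856 lower peaks the medians were 66.7, 118 and 171, and Tadys lay between at 3060 (79.4%). Tadys was closer to Tterm than to Tprog at 51.2% of the higher and 45.2% of the lower peaks. The peaks were chosen for the difference between Tterm and Tprog, so these are descriptions without a test. Tadys lay near Tterm at the sites near Ccr7 and Itgb1.

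The same subsets of young mice (10-12 weeks, 5 Tterm and 4 Tprog libraries in the same table) called 10261 peaks higher (14.3%) and 8115 lower (11.3%). Of the higher peaks of old mice, 3675 were also higher in young (75.9% of the old calls and 35.8% of the young), and of the lower 3091 (80.2% and 38.1%). In each direction 2 peaks were called the opposite way in young. The young groups were larger, so the counts themselves are not compared. The test of the difference, age by subset in 1 limma model, called 0 peaks, with 5676 at an unadjusted p under 0.05 (7.91%). edgeR also called 0 and DESeq2 20, and limma called 1 without young Tprog 3. The lowest limma adjusted p was 0.106, at a peak given to Inpp5b. At the Ifng site named above, the log2 difference was 4.89 ± 0.63 in old and 3.07 in young, and the age by subset p was 0.0344 unadjusted and 0.611 after limma's adjustment. At the Tcf7 site the differences were -2.37 in old and -2.29 in young, at Ccr7 -3.10 and -3.49, at Ccl3 2.07 and 1.67, and at the Gzmf promoter 3.72 and 2.64.

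OT-1 cells carry a transgenic receptor for ovalbumin, and 6 Tterm and 2 Tprog libraries of such cells labelled with the old age were in a second table normalized apart, with other peaks. The hosts of those cells are not given in the labels. Of 8699 called endogenous peaks, 8328 overlapped a tested OT-1 peak by at least 1 base. At 4720 such higher peaks, 2860 were also called higher in OT-1 cells (60.6%, where 11.3% of all OT-1 peaks were) and 6 lower. At 3608 lower peaks, 1263 were also called lower (35.0%, where 3.39% were) and 29 higher. The limma fit of OT-1 libraries had a term for batch 6, since both Tprog libraries belonged to that batch. Batch 6 held 1 OT-1 Tterm library of this age, so within it the spread of Tterm is assumed like that of the other groups. The calls in the same direction numbered 4123 in all and 957 with a replicate block over the 8 old OT-1 libraries. That block joined Tprog 1 and 2 with Tterm 1 and 2 of other batches, and left few libraries to measure spread. The count was also lower with the old OT-1 groups cut to batch 6, which left 1 Tterm library. Young OT-1 and naive libraries of other batches stayed in that fit. So the count depends on the fit. With equal library totals 2354 were higher in both and 1967 lower in both, against 2860 and 1263 above. Opposite calls, 35 in all, numbered 336 without OT-1 Tprog 2 and 42 with equal library totals.

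Single sites differed in OT-1 cells. The Tcf7 and Ccr7 sites were lower there too, by -2.20 and -2.84 on the log2 scale (limma adjusted p = 2.02e-05 and 1.02e-05), and the Ccl3 and Irf8 sites higher, by 2.94 and 3.43 (1.86e-06 and 2.82e-07). The Tox site differed by -0.40 (limma adjusted p = 0.375) and the Cd69 site by -0.28 (0.472) in OT-1 cells, against -1.31 and -1.36 in endogenous cells. The tables were normalized apart, and the difference between endogenous and OT-1 cells was not tested.

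**Figure D5:**
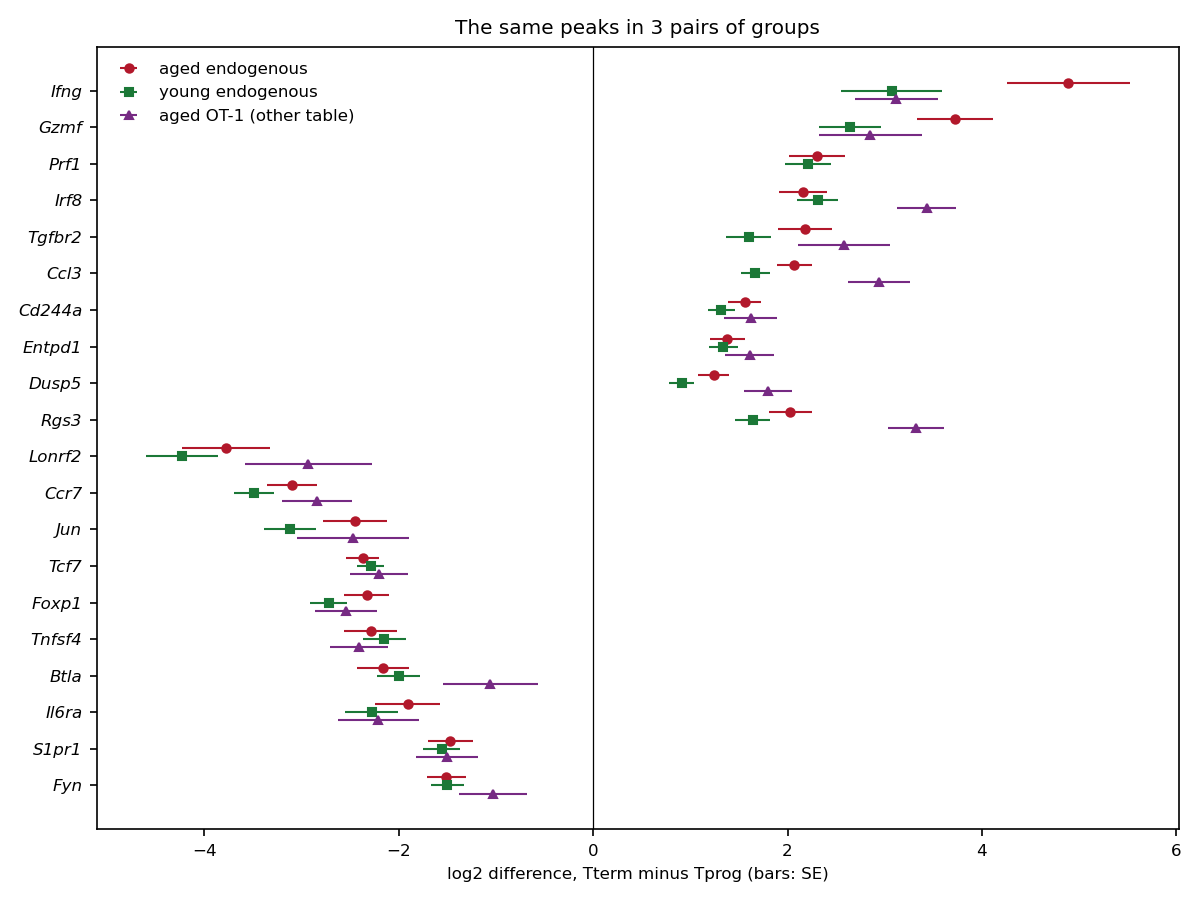
Log2 difference, Tterm minus Tprog ± SE (x axis), at 20 peaks (rows) in old endogenous, young endogenous and old OT-1 cells. Old and young endogenous cells share 1 fit, and OT-1 cells have another. Every difference drawn has the same sign in the 3 pairs of groups, although Btla in OT-1 cells (-1.06, limma adjusted p = 0.136) was not called, and Prf1 has no tested overlapping OT-1 peak.

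Short sequence cores were counted in promoter windows of which at least 150 bases lay in a called peak, 377 windows of 331 genes for higher and 294 windows of 257 genes for lower peaks. TGANTCA, the AP-1 core, stood in 43 higher windows (11.4%) and 24 lower windows (8.16%), against 5.07% of 14016 windows in tested peaks and 7.81% of all 32817 RefSeq windows. TGTGGTT, the RUNX core, stood in 36 (9.55%) and 24 (8.16%), against 4.10% and 5.27%. CTTTGAT, a core bound by TCF and LEF factors such as Tcf1, stood in 4 higher windows (1.06%) and 12 lower windows (4.08%), against 2.34% and 3.73%. Other cores were counted too, given here for higher and lower, against tested windows. The T-box core stood in 1.86% and 2.38%, against 0.870%, and the E-box of E proteins in 20.4% and 19.0%, against 14.8%. The NR4A core stood in 1.59% and 1.36%, against 0.935%, and the KLF core in 5.84% and 4.08%, against 3.85%. IRF had 3.18% and 4.76%, against 2.93%, and NFAT 6.63% and 5.10%, against 5.84%. So AP-1 and RUNX were not alone in exceeding tested windows. Both strands were searched, and no test was run. Median GC content was 58.0% in the higher, 56.2% in the lower, 61.7% in the tested and 52.7% in all windows, so the sets also differ in base composition. Most called peaks lie outside promoters and could not be read, because no genome sequence was used here.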

How the data were processed

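Sorted CD8+ T cells were assayed by ATAC-seq, with read pairs of 50 bp. Per the submitters' processing notes, Bowtie2 2.2.9, Picard 2.8.0, SAMtools 1.3.1, MACS2 2.1.1, DESeq2 1.28.1 and mm10 were used. Read shifting, peak merging and the handling of multi-mapping reads are not given in the sources used here. The deposited signal values are reads per peak divided by a size factor per library, and 100% of values were whole reads within 0.01 reads after multiplying back. The endogenous table held 73610 peaks and 17 libraries.

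Peaks with a table mean of 10 or more (71756) were fitted as log2(value + 1), a pseudocount of 1, with limma 3.58.1 (R 4.3.3), all 5 groups in 1 model with an intensity trend, and Benjamini-Hochberg adjustment. The OT-1 table was fitted apart. Alternatives were pseudocounts 0.5 and 5, a table mean of 30, no filter, quantile scaling, equal totals, the compared groups alone, array weights, a replicate block, edgeR 4.0.16 and DESeq2 1.42.0 on whole reads, a gene distance of 10000 bp, and each library left out in turn. The tests were tried on simulated reads.

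Peaks were assigned to the closest RefSeq protein-coding gene (21900 genes, GRCm38.p6) within 100000 bp, so genes of distant peaks are guesses from distance. The sort markers, up to 3 genes per list and direction, the 10 largest differences and the 10 genes with the most calls in each direction were named by rule, and the text uses a part of them. The members and the 22 lists were chosen with earlier results of these data known.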

Additional observations from a re-analysis of the deposited data

How the results depend on the processing

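Of 142 called peaks named by rule, 121 kept their call and direction in every alternative that gave a value, and none reversed. At a table mean of 30 or more, 137 had a value. The rule picked peaks largely for low p or large differences, so this stability is partly built in. Of all calls, 2803 of 4843 higher peaks kept theirs without Tterm 3, and 2338 of 3856 lower peaks without Tprog 2. Called higher peaks numbered 2832 to 4242 and called lower peaks 2403 to 3595 when 1 library was left out, 4295 and 3725 with the replicate block, 4989 and 4104 with edgeR, 5710 and 5059 with DESeq2, and 5529 and 4683 with array weights. Equal library totals gave 4380 and 4443. The age by subset test gave 0 to 1 peaks when 1 library was left out, 20 with DESeq2 and 0 in the other fits run, which did not include array weights. OT-1 peaks called in the same direction numbered 3320 to 4142 when 1 library was left out, 1204 with batch 6 libraries alone, 957 with the replicate block and 4477 with no batch term. The cause was not tested. Deviations from the group means correlated by -0.27, -0.16 and 0.06 between Tterm and Tprog of the same replicate number. Between libraries of other numbers they correlated by -0.13 to 0.24. With 3 libraries per subset these values cannot tell whether libraries of the same number share animals or a sort. With genes assigned within 10000 bp, higher peaks numbered 24 for cytotoxic genes, 12 for chemokines, 7 for chemokine and egress receptors, 44 for effector factors, 4 for progenitor factors, 21 for feedback regulators, 5 for adhesion, 10 for metabolism, 2 for housekeeping and myeloid genes each and 0 for interferon response and melanocyte genes. Lower peaks numbered 20 for chemokine and egress receptors, 14 for costimulation, 5 for feedback regulators, 2 each for cytotoxic, metabolism and housekeeping genes, 1 for AP-1 and 0 for chemokines. By other methods the AP-1 family had 3 higher with equal library totals and with the replicate block, and 8 lower with quantile scaling and DESeq2. Lower chemokine peaks numbered 5 with equal library totals, quantile scaling and DESeq2. Lower NK receptor peaks, and lower peaks of NK and innate genes, numbered 1 each with edgeR and with a table mean of 30 or more. Lower cell cycle peaks numbered 1 with the replicate block and 4 with DESeq2, and higher B cell peaks 0 with the replicate block. Interferon response peaks numbered 0 to 2 higher and 0 to 3 lower. The low depth of Tprog 1 limits values of few reads.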

Other observations

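Called peaks often stood side by side. There were 84 stretches of 4 or more consecutive tested peaks that were all higher in Tterm, holding 423 peaks, the longest with 10 (Filip1), and 68 stretches of lower peaks, holding 351, the longest with 14 at Asap1 (87691 bp) and 14 at Klf3 (252739 bp). Further stretches lay at Mrpl46 (10 lower), Zcchc14 (9 higher), Tmem163 (8 higher) and Lrig1 (8 lower, 120041 bp).

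Of 1913 tested peaks on chromosome X, 25 were higher (1.31%, against 6.92% on autosomes) and 59 lower (3.08%, against 5.44%). Their median level in Tterm was 54.6 normalized reads, against 89.9 on autosomes, and the difference in calls was not tested. Chromosome X peaks held 1.79% to 1.91% of reads in Tterm and 1.84% to 2.08% in Tprog.

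The 4 peaks called in opposite directions in old and young mice had unadjusted age by subset p-values of 1.45e-05 to 8.98e-05 in limma and adjusted values of 0.261 to 0.539. They lay near Slc3a2 (log2 difference 1.07 ± 0.29 in old and -0.65 ± 0.24 in young), Cspg4 (0.97 ± 0.24 and -0.67 ± 0.20) and Myadm (-0.58 ± 0.19 and 0.62 ± 0.16), and 1 had no gene within 100000 bp (-0.70 ± 0.22 and 0.67 ± 0.18). The call in old mice was lost for Slc3a2 without Tterm 2, Tterm 3 or Tprog 3, for Cspg4 without Tterm 3, and for Myadm with array weights and without any 1 library other than Tterm 1. A site inside Igf2 was called in old mice, with 8.61, 22.1 and 30.7 normalized reads in Tterm, against 0, 2.02 and 2.49 in Tprog (3.13 ± 0.63, limma adjusted p = 0.00108), and lost that call with the replicate block. Its log2 difference in young mice was -1.21, and the adjusted age by subset p was 0.261.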
